A study of Mus musculus with 14 samples.

Results

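B-cell precursor genes are 10 mouse genes used to recognise B-lineage cells that are still assembling their antigen receptor: Rag1, Rag2, Dntt, Vpreb1, Vpreb3, Igll1, Il7r, Sox4, Cd93 and Cd24a. They were taken by gene name and are 10 of the 41053 gene rows in each of 2 tables of read counts. The RNA-seq libraries, 14 in all, came from B cells of mouse spleen, and each is labelled C57BL/6. Tet2 knock-out germinal center (GC) B cells gave 4 libraries (KO, replicates 2 to 5) and Tet2 wild-type GC B cells gave 3 (WT, replicates 1, 3 and 4). Lymphoma B cells gave 2 libraries with a Tet2 knock-down (shTet2, replicates 1 and 2) and 5 control libraries labelled Tet2 wild type (replicates 1 to 5). The series is about the loss of TET2, which oxidises the methyl group of cytosine in DNA. The sources used here do not give which part of Tet2 was deleted, whether a Cre driver was used, how the GC B cells were purified, how the lymphoma arose, which vector carried the hairpin, or any age. Whether replicates are separate animals or tumours is not labelled either. The p-values therefore set group differences only against the variation between libraries, whose source is not known.

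A B cell begins in the bone marrow, where the RAG recombinase, made of RAG1 and RAG2, cuts the immunoglobulin loci and joins V, D and J segments. TdT, encoded by Dntt, adds untemplated bases at the joins. A newly made heavy chain first pairs with a surrogate light chain, made of the VpreB and lambda5 proteins (Vpreb1 and Igll1), to form the pre-B-cell receptor. Signals through the interleukin-7 receptor (Il7r) keep mouse B-cell precursors alive and dividing. GC B cells are mature B cells that divide and mutate receptor genes they have already assembled, and they are selected for binding in the spleen and lymph nodes. The RAG and surrogate light chain genes are known to be silent in them, while Vpreb3 and Cd24a are known to be transcribed in mature B cells as well.

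Promoter sequences were available from RefSeq (GRCm38.p6, 300 bases around the annotated start, most of them before it) for 8 of the 10 genes, all but Cd93 and Cd24a. The 3 VpreB and lambda5 genes are shown because one of them, Vpreb3, was abundant in every library and the others were near 0. Capitals mark E-boxes (CANNTG, the letters bound by E2A proteins and other factors of their family) and the octamer (ATGCAAAT or its reverse complement, known from immunoglobulin promoters). Vpreb3 lies at chr10:75948050-75948349 on the plus strand, Vpreb1 at chr16:16869206-16869505 on the minus strand and Igll1 at chr16:16863936-16864235 on the minus strand. The Vpreb3 and Vpreb1 windows fall inside the gene spans used for counting, in which these genes start further upstream.
Vpreb3: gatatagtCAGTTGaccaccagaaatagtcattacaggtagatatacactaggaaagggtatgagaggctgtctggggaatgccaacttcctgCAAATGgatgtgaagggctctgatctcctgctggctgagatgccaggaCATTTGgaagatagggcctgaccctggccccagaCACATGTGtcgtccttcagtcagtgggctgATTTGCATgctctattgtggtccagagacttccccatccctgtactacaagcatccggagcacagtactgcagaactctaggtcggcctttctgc
Vpreb1: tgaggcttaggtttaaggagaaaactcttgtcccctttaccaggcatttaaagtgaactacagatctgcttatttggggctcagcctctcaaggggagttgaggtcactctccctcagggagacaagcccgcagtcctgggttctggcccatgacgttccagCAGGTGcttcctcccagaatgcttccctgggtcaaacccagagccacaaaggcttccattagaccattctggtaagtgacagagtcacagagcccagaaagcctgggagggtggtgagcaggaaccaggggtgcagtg
Igll1: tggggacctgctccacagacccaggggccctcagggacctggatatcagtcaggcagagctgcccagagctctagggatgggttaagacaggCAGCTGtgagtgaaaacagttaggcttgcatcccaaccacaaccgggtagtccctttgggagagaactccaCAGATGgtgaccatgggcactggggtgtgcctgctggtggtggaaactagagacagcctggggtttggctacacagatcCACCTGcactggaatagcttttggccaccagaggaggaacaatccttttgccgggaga
The Vpreb3 window held 5 E-boxes, of which 2 overlap each other, and 1 octamer, which begins at base 206 of the 300. The Vpreb1 and Igll1 windows held 1 and 3 E-boxes and no octamer. Over all 32851 RefSeq promoters of this length, 72.3% held an E-box and 1.74% an octamer, on either strand. The letters TCCC and GGGA separated by 2 bases, associated with the early B-cell factor EBF1, were in 0.904% of promoters and in none of the 8 windows. The 3 windows held 2 or 3 CG dinucleotides, against a median of 7 over all promoters. These are letter matches and say nothing of binding.

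GC libraries held 29487244 to 30330950 counts (KO) and 27191862 to 30434184 counts (WT), and lymphoma libraries held 14741588 and 9386084 counts (shTet2) and 6691167 to 18598386 counts (control). A hand-picked set of rows that collect ribosomal and other structural RNA took 0.355% to 1.24% of counts in GC libraries, 52.5% and 43.5% in shTet2 libraries and 54.8% to 80.6% in control libraries. Control replicate 2 kept 1531806 counts outside those rows, the fewest of all libraries. Cd79a, which encodes a signalling chain of the B-cell receptor, averaged 747 CPM in KO and 791 CPM in WT, and 288 CPM in shTet2 and 390.4 CPM in control libraries. Germinal center markers were at 1915 to 2036 summed CPM in KO and 1638 to 2019 in WT libraries, but at 357 and 391 in shTet2 and 229 to 282 in control libraries. CPM here are read counts scaled for depth, on a TMM scale shared by the 14 libraries. Tet2 itself was at 8.23 to 10.1 CPM in KO and 7.82 to 9.07 CPM in WT libraries, which overlap, and counts over the whole gene do not check a deletion of part of it. It was at 83.8 and 76.5 CPM in shTet2 and 85.3 to 100.1 CPM in control libraries, with both shTet2 libraries below all 5 controls. The nearest were shTet2 replicate 1, with 1053 counts in a library of 14741588, and control replicate 4, with 682 in one of 12429479. Their order depends on the scaling, and these values do not check the knock-down.

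Across the 10 genes the levels covered more than 4 orders of magnitude. Compared per kilobase of exon, Cd24a was the most abundant, then Vpreb3, then Cd93, in each of the 4 groups. In GC B cells the mean levels per kilobase of these 3 were 489.9 ± 49.6, 133 ± 9.12 and 2.21 ± 0.435 CPM in KO (SD, n = 4) and 368 ± 17.5, 106 ± 12.8 and 1.27 ± 0.273 CPM in WT (SD, n = 3). In lymphoma B cells they were 100.2 ± 11.6, 15.9 ± 8.68 and 0.673 ± 0.651 CPM per kilobase in shTet2 (SD, n = 2) and 103 ± 12.3, 19.5 ± 7.18 and 1.26 ± 0.423 CPM per kilobase in control (SD, n = 5). The other 7 genes averaged at most 0.165 CPM per kilobase in every group, except Il7r in both lymphoma groups and Sox4 in the control lymphoma group. Il7r was the fourth in order in both lymphoma groups, at 0.560 ± 0.0554 (shTet2) and 0.681 ± 0.355 CPM per kilobase (control), and the seventh (KO) and sixth (WT) in GC B cells. Sox4 was at 0.165 ± 0.143 (shTet2) and 0.232 ± 0.136 CPM per kilobase (control).

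**Figure D1:**
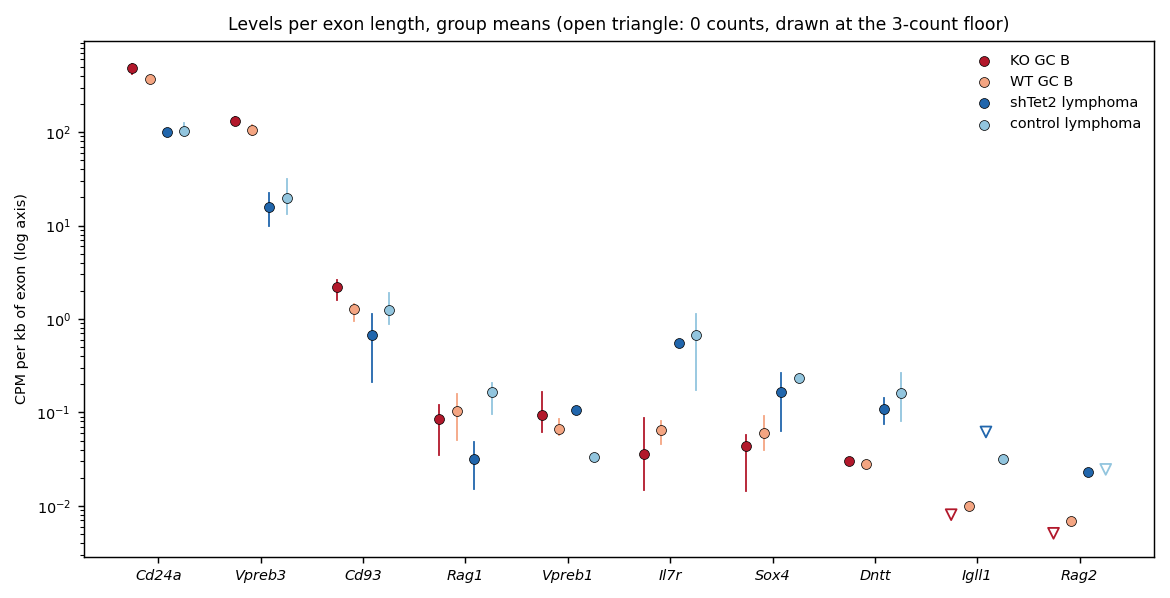
Mean level of the 10 genes in each group, in CPM per kilobase of exon on a log axis, with genes ordered by their mean in WT GC B cells. Lines run from the lowest to the highest library where all libraries have a count, and open triangles mark a group with 0 counts, drawn at the 3 counts that such a group allows. Cd24a, Vpreb3 and Cd93 stand above the other genes in all 4 groups, and Il7r comes next in the lymphoma groups.

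The recombination genes were at or near 0. Rag1 (chromosome 2, 101638282 to 101649501, minus strand) had 10, 35, 21 and 32 counts in KO replicates 2 to 5, against 16, 31 and 44 counts in WT replicates 1, 3 and 4. Between KO and WT its libraries overlap. In lymphoma cells Rag1 had 4 and 1 counts in shTet2 libraries, against 6, 4, 12, 10 and 5 counts in control libraries. Scaled for depth, the shTet2 libraries (0.319 and 0.101 CPM) lay below all 5 controls (0.639 to 1.38 CPM), on totals of 5 and 37 counts.

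Rag2 (chromosome 2, 101624718 to 101632529, plus strand), without which RAG1 does not cut, had 0 counts in all 4 KO libraries. In WT it had 3 counts, all in replicate 4. It had 2 counts in shTet2 replicate 1, none in replicate 2 and none in the 5 controls. A group with 0 counts allows up to 3 counts, which is 0.0174 CPM over the KO libraries and 0.0841 CPM over the control lymphoma libraries. Such floors cover counting error only. Rag1 and Rag2 lie 5752 bases apart, and small stretches of both share bases with the row B230118H07Rik, 80 bases on the same strand for Rag1 and 208 on the other strand for Rag2. Reads had been counted without regard to strand, so reads of these stretches cannot be told apart.

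Dntt (chromosome 19, 41029275 to 41059523, plus strand) had 0, 3, 7 and 1 counts in KO libraries, against 3, 0 and 5 in WT libraries. It had 2 and 3 counts in shTet2 libraries, against 3, 1, 2, 2 and 3 in control libraries, so no library of any group exceeded 7 counts. Scaled for depth, Dntt averaged 0.0647 CPM in KO and 0.0604 CPM in WT, and 0.231 CPM in shTet2 and 0.341 CPM in control. All 5 control lymphoma libraries (0.173 to 0.556 CPM) lay above all 3 WT libraries (0 to 0.118 CPM), on 11 and 8 counts.

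The surrogate light chain genes gave no more than 8 counts in any library. Vpreb1 (chromosome 16, 16868402 to 16870843, minus strand) had 4, 8, 3 and 3 counts in KO libraries, against 3, 3 and 4 in WT libraries. It had 3 and 0 counts in shTet2 libraries and a total of 1 count in the 5 control libraries. Its near copy Vpreb2 had 0 counts in all 14 libraries. The annotated transcripts of Vpreb1 and Vpreb2 are 97.4% identical over 759 aligned bases, with identical runs of up to 196 bases, so reads that match both could have been lost or given to either. A stretch of 108 Vpreb1 exon bases also overlaps Top3b on the other strand. Igll1 (chromosome 16, 16860671 to 16863985, minus strand), which lies 4416 bases from Vpreb1, had 0 counts in all KO libraries, against 1, 2 and 0 in WT libraries. It had 0 counts in both shTet2 libraries and 1 count in the 5 controls, in replicate 2.

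**Figure D2:**
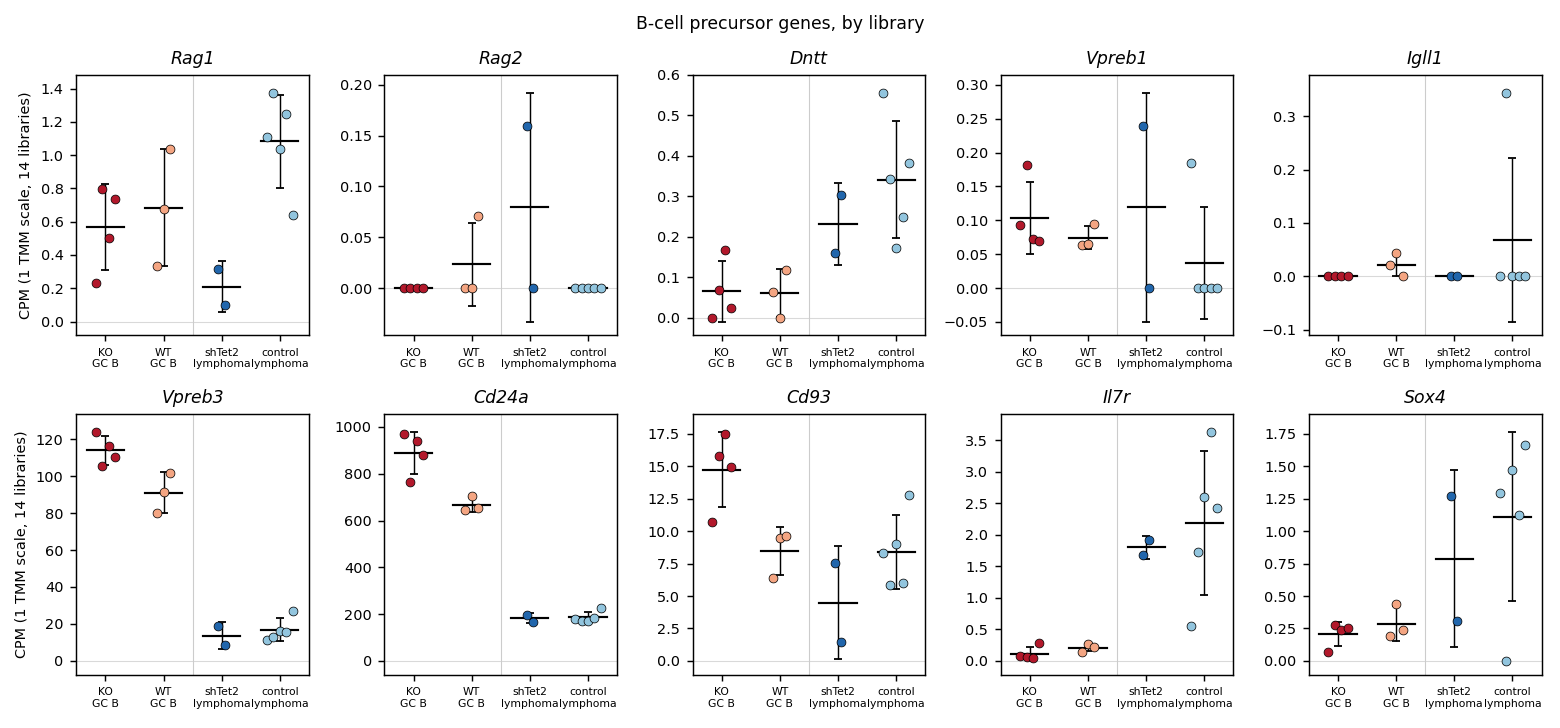
CPM of each gene in each library (points), with the group mean (horizontal bar) and SD (vertical bar), for KO, WT, shTet2 and control from left to right. Each panel has its own linear axis, and an SD that reaches below 0 comes from counts near 0. On this scale Cd24a, Cd93 and, narrowly, Vpreb3 are higher in all 4 KO than in all 3 WT libraries. Il7r and most Sox4 values are higher in lymphoma than in GC libraries.

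In KO against WT GC B cells, the question was whether the precursor genes move with the loss of Tet2 in normal B cells. Cd93 was the 1 gene of the 10 that passed the test, and it was higher in KO. On the shared CPM scale Cd24a and, narrowly, Vpreb3 were also higher in all 4 KO than in all 3 WT libraries, by smaller amounts that did not pass. Rag1 and Sox4 overlapped between the groups, and the other 5 genes were too low to be tested. The test was edgeR's quasi-likelihood test with Benjamini-Hochberg adjustment over 13600 genes, at an adjusted p under 0.05. Fold changes come from fits scaled on the genes that passed the filter, and within GC or lymphoma cells on those libraries alone. They can therefore differ from ratios of the CPM means, which share 1 scale over all rows of the 14 libraries. Of all genes tested, 6.49% passed, 1.92% higher and 4.57% lower, so 1 of 5 tested members is a count too small to set against that share.

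Cd93 (chromosome 2, 148436640 to 148443563, minus strand) encodes a membrane lectin, used with the AA4.1 antibody to mark immature and transitional B cells, and also known from endothelial and myeloid cells. It had 462, 694, 731 and 650 counts in KO replicates 2 to 5, which is 10.7, 15.8, 17.5 and 15.0 CPM, against 303, 431 and 407 counts or 6.38, 9.44 and 9.61 CPM in WT replicates 1, 3 and 4. Every KO library lay above every WT library, and the closest were KO replicate 2 and WT replicate 4. The means were 14.7 ± 2.91 (SD, n = 4) and 8.48 ± 1.82 CPM (SD, n = 3). The fit gave a log2 fold change of 0.71 (SE 0.18, edgeR adjusted p = 0.0323), or 1.64-fold. The call is close to the threshold. Leaving out KO replicate 3 (adjusted p = 0.0868), 4 (0.0908) or 5 (0.0915) ended it, as did leaving out WT replicate 1 (0.115) or 3 (0.0687) and 1 model of all 4 groups (0.278). It held without KO replicate 2 (0.00390) or WT replicate 4 (0.0461) and in DESeq2 (0.00227), and the log2 fold change stayed between 0.54 and 0.84 in these 15 alternatives. In bulk RNA, more cells that express a gene and more RNA per cell cannot be told apart.

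No myeloid or endothelial marker passed as higher in KO. Of 9 tested myeloid markers, 8 were lower in KO, against 4.57% of all genes tested, with summed levels of 50.1 to 52.6 CPM in KO and 81.8 to 88.6 CPM in WT libraries, and Ly6g at 0 counts in WT. None of 3 tested endothelial markers passed, with 52.2 to 69.3 CPM in KO and 67.8 to 76.4 CPM in WT libraries, Cd34 at 0 in both and Tie1 at 0 in WT. Plasma cell markers were at 1239 to 1666 summed CPM in KO and 1075 to 1413 CPM in WT libraries. Of 8 tested, 0 passed as higher and 1 as lower. Naive and memory B-cell markers were lower in 6 of 9 cases, at 624 to 747 summed CPM in KO and 833 to 914 CPM in WT libraries. The 4 Y-linked genes measured were higher in KO, at 120.0 to 132 summed CPM against 63.6 to 76.2 CPM in WT. The part of these markers in the Cd93 difference was not tested.

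Cd24a (chromosome 10, 43579169 to 43584262, plus strand) encodes the heat-stable antigen, a surface glycoprotein that is high on B-cell precursors and falls as follicular B cells mature. It was at 969, 765, 938 and 880 CPM in KO libraries, against 645, 704 and 654 CPM in WT libraries. These 4 KO values lay above the 3 WT values, with KO replicate 3 and WT replicate 3 nearest each other. The means were 888 ± 89.9 CPM in KO and 668 ± 31.8 CPM in WT. The fitted log2 fold change was 0.32 (SE 0.09, edgeR adjusted p = 0.0514), just outside the threshold. Cd24a passed with median-of-ratios scaling (0.0464), in DESeq2 (0.00827), with no filter on low counts (0.0204), in 1 model of all 4 groups (0.0490) and without KO replicate 3 (0.0203). In 10 of the 15 alternatives Cd24a did not pass, among them 6 of the 7 fits with a library left out (edgeR adjusted p up to 0.146). The replicate block gave a log2 fold change of 0.23 (edgeR adjusted p = 0.588). Erythroid cells also express it. Erythroid markers were at 12.97 to 25.3 summed CPM in KO and 13.95 to 27.9 CPM in WT libraries, and none of 5 tested passed.

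Vpreb3 (chromosome 10, 75943057 to 75949657, plus strand) encodes a VpreB-related protein that associates with immunoglobulin chains inside the cell. It was at 124, 106, 116 and 111 CPM in KO libraries, against 79.9, 91.6 and 102 CPM in WT libraries. On the CPM scale shared by the 14 libraries the groups did not overlap, but KO replicate 3 and WT replicate 4 were close. KO replicate 3 had 4643 counts in a library of 30330950, and WT replicate 4 had 4311 in one of 27191862. Their order therefore depends on the scaling. The means were 114 ± 7.83 CPM in KO and 91.1 ± 10.97 CPM in WT, and the fitted log2 fold change was 0.24 (SE 0.10, edgeR adjusted p = 0.184).

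The transcription factor gene Sox4 and the receptor gene Il7r were low in GC B cells. Sox4 (chromosome 13, 28948919 to 28953713, minus strand), needed for pro-B-cell survival in mice, had 3, 12, 10 and 11 counts in KO libraries, against 9, 20 and 10 in WT libraries. Its log2 fold change was -0.54 (SE 0.52, edgeR adjusted p = 0.629), and that of Rag1 was -0.35 (SE 0.45, adjusted p = 0.730), both within the spread between libraries. The sign of Rag1 turned without WT replicate 4 (0.091). Of the Sox4 exon bases, 54.6% lie opposite Gm26735. Il7r (chromosome 15, 9506161 to 9529876, minus strand) had 3, 3, 2 and 12 counts in KO libraries, against 7, 12 and 9 in WT libraries, and was below the filter on low counts. Scaled for depth, KO replicate 5 (0.276 CPM) lay above the 3 WT values (0.147 to 0.263 CPM) and the other 3 KO libraries below them.

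**Figure D3:**
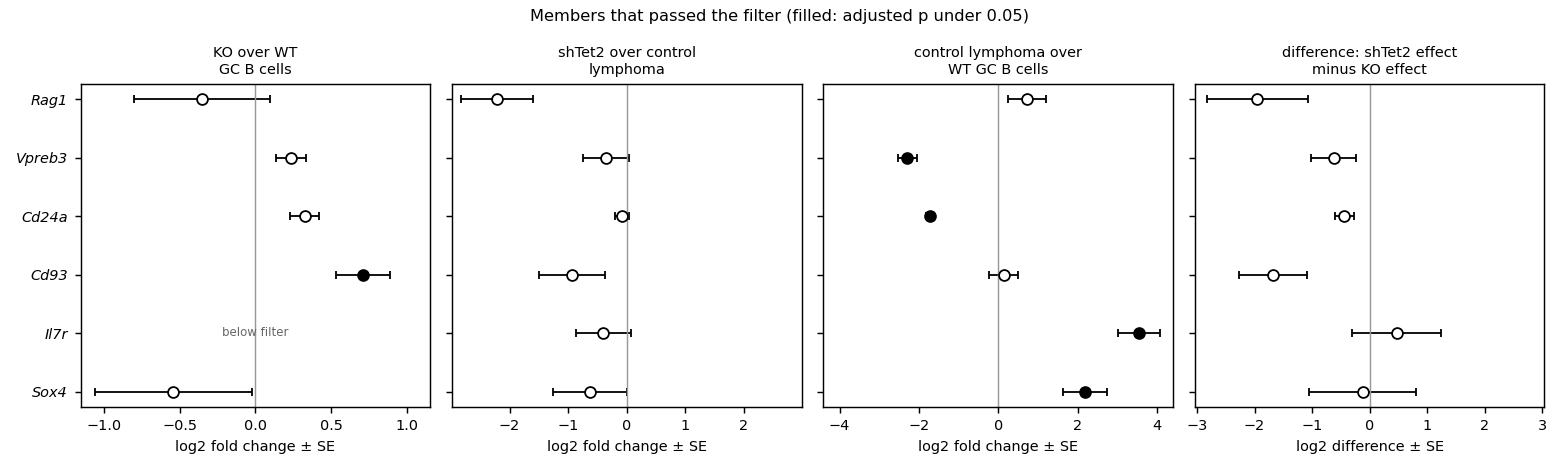
Log2 fold changes with SE of the 6 genes that passed the filter in at least 1 comparison, in KO over WT, shTet2 over control, control lymphoma over WT GC B cells, and the difference of the Tet2 effects. Filled points had an edgeR adjusted p under 0.05. Cd93 is the filled point in KO over WT, none is filled in shTet2 over control or in the difference, and 4 are filled between control lymphoma and WT GC B cells.

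In shTet2 against control lymphoma cells, which asks the same of malignant B cells, 0 of the 6 tested genes passed, and 1, Rag1, had an unadjusted p under 0.05. Over 12797 genes tested, 2.58% passed, 1.84% higher and 0.742% lower. DESeq2 also called none of them, and gave no adjusted p for Rag1. Rag1 had a log2 fold change of -2.22 (SE 0.62, edgeR adjusted p = 0.0832) on the counts given above. Its edgeR adjusted p ranged from 0.0701 to 0.479 over the 8 alternatives in which it was tested, all with a negative fold change, and it was below the filter at 1 CPM and with any other library left out.

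The shTet2 libraries differed from each other for Cd93, Vpreb3 and Sox4, and by less for Cd24a. They also differed in marker lists of other cells. Myeloid markers summed to 116 CPM in shTet2 replicate 1 and 373 CPM in replicate 2, against 147 to 267 CPM in control libraries. Naive and memory B-cell markers summed to 2240.2 CPM in shTet2 replicate 1 and 1537 CPM in replicate 2, against 2164 to 2506 CPM in control libraries. None of 11 tested myeloid and 9 tested naive and memory markers passed between shTet2 and control, and their part in the differences between the shTet2 libraries was not tested. Of 9 tested germinal center markers, 2 were higher in shTet2 (S1pr2 and Fas) and 0 lower. Of 7 tested plasma cell markers, 2 were higher (Prdm1 and Xbp1) and 0 lower, against 1.84% and 0.742% of all genes. Plasma cell markers summed to 656 and 456 CPM in shTet2 and 182 to 305 CPM in control libraries. The part of these markers in the members' values was not tested. Cd93 had 95 and 14 counts in shTet2 replicates 1 and 2, which is 7.56 and 1.42 CPM, against 8.34, 5.84, 9.01, 6.00 and 12.8 CPM in control replicates 1 to 5. Replicate 1 stood among the controls and replicate 2 below all of them. The log2 fold change was -0.94 (SE 0.57, edgeR adjusted p = 0.416). It was -2.63 without shTet2 replicate 1 (adjusted p = 0.00165) and -0.24 without shTet2 replicate 2 (adjusted p = 0.890), in fits that assume the lone library to vary like the controls.

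Vpreb3 was at 19.0 and 8.40 CPM in shTet2 libraries, against 11.5, 13.1, 16.4, 15.8 and 27.2 CPM in control libraries. Again shTet2 replicate 1 was inside the control range and replicate 2 below it. The log2 fold change of -0.35 (SE 0.39, edgeR adjusted p = 0.670) turned to 0.092 without shTet2 replicate 2. Sox4 had 16 and 3 counts in shTet2 libraries, against 7, 0, 17, 9 and 13 in control libraries (log2 fold change -0.63, SE 0.63, adjusted p = 0.623). Its log2 fold change was -2.02 without shTet2 replicate 1 and -0.017 without shTet2 replicate 2, neither past the threshold.

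Cd24a was at 197 and 167 CPM in shTet2, against 179, 172, 172, 182 and 225 CPM in control libraries, with a log2 fold change of -0.08 (SE 0.12, edgeR adjusted p = 0.740). Replicate 1 was inside the control range and replicate 2 just below it, and the sign turned to 0.024 without shTet2 replicate 2. Il7r had 21 and 19 counts or 1.67 and 1.92 CPM in shTet2, against 3, 5, 30, 29 and 19 counts or 0.556 to 3.63 CPM in control libraries. Both values fell inside the control range (log2 fold change -0.40, SE 0.47, adjusted p = 0.682).

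The KO and shTet2 effects on each gene were compared in 1 model of all 4 groups, as the shTet2 effect minus the KO effect. Over 15441 genes, 4.99% passed (3.39% higher and 1.61% lower), and 0 of 6 tested members did. Of these, 3 had an unadjusted p under 0.05: Cd24a with a log2 difference of -0.44 (SE 0.16, edgeR adjusted p = 0.122), Cd93 with -1.68 (SE 0.60, adjusted p = 0.137) and Rag1 with -1.95 (SE 0.88, adjusted p = 0.222). DESeq2 called Cd93 (adjusted p = 0.0265). Without shTet2 replicate 1, which leaves 1 shTet2 library, edgeR called Cd93 (-3.39, adjusted p = 0.000543), Cd24a (-0.56, adjusted p = 0.0451) and Vpreb3 (-1.35, adjusted p = 0.0459). Without shTet2 replicate 2 it called none of them, with Cd93 at -1.02 (adjusted p = 0.301), Cd24a at -0.37 (0.396) and Vpreb3 at -0.22 (0.867). A Cd93 call in GC B cells and none in lymphoma cells therefore does not show that the effects differ.

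Between the 2 kinds of control cells, the precursor genes differed in both directions. In control lymphoma against WT GC B cells, Il7r and Sox4 were higher, and Cd24a and Vpreb3 were lower, while Cd93 and Rag1 did not pass. Most genes differ here, since 80.7% of 15441 genes passed (40.2% higher and 40.4% lower), so 4 of 6 members is not above the background. Cell source, count table and the content of structural RNA all changed together between these groups and cannot be told apart. The 4 Y-linked genes had 0 counts in the lymphoma libraries, against 63.6 to 76.2 summed CPM in WT GC libraries. Of 11 tested myeloid markers, 5 were higher in control lymphoma and 0 lower, with sums of 147 to 267 CPM in control lymphoma and 81.8 to 88.6 CPM in WT GC libraries. In the fit of GC libraries 9 myeloid markers passed the filter, so some entered this fit through the lymphoma libraries, which favoured a higher call. The part of these markers in the members' differences was not tested. Upper-quartile scaling moved the median log2 fold change of all genes to 0.38, against -0.03, and the share of higher calls to 60.9%, against 49.9%, with the same direction for these 4 genes.

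Il7r had 0.556, 1.72, 2.60, 3.63 and 2.43 CPM in control lymphoma replicates 1 to 5, against 0.147, 0.263 and 0.212 CPM in WT GC libraries. All 5 lay above all 3, with control replicate 1 the lowest on 3 counts. The log2 fold change was 3.55 (SE 0.53, edgeR adjusted p = 3.94e-06), on totals of 86 and 28 counts. Il7r was below the filter in the fit of GC libraries and entered this fit through the lymphoma libraries, so the filter favoured a call in this direction. Sox4 was at 1.30, 0, 1.47, 1.13 and 1.66 CPM in control lymphoma libraries, against 0.189, 0.438 and 0.236 CPM in WT GC libraries. Control replicate 2, the shallowest library, had 0 counts, and the other 4 lay above all WT values (log2 fold change 2.18, SE 0.56, adjusted p = 0.00143).

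T cells and innate lymphoid cells express Il7r too, and their markers moved in the same comparison. Over all genes tested, 40.2% were higher and 40.4% lower. Of 12 T-cell markers, 11 were higher in control lymphoma, such as Cd3d at 1.71 ± 0.351 CPM against 0.249 ± 0.140 CPM in WT, and Lck was lower. The summed T-cell level was 142 to 211 CPM in control lymphoma and 231 to 257 CPM in WT libraries, most of it from Cd2 and Lck. All 8 markers of natural killer and innate lymphoid cells were higher, with sums of 7.91 to 11.004 CPM in control lymphoma and 1.51 to 2.12 CPM in WT libraries, and Gata3 at 0 counts in WT. In the fit of GC libraries, 1 of these 8 and 8 of the 12 T-cell markers passed the filter on low counts. The others entered this fit through the lymphoma libraries, so the filter favoured calls in this direction, and the counts cannot be set against 40.2%. No T-cell marker was at 0. Their part in the Il7r difference was not tested. Naive and memory B-cell markers were higher in 9 of 9 cases, and germinal center markers lower in 9 of 9 tested (median log2 fold change -5.73).

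Cd24a was at 186 ± 22.4 CPM in control lymphoma and 668 ± 31.8 CPM in WT GC B cells, with a fitted log2 fold change of -1.73 (SE 0.10, edgeR adjusted p = 3.16e-12). Vpreb3 was at 16.8 ± 6.17 CPM in control lymphoma and 91.1 ± 10.97 CPM in WT GC B cells (log2 fold change -2.29, SE 0.24, adjusted p = 1.48e-06). For both genes all 5 lymphoma libraries lay below all 3 GC libraries. Cd93 was at 8.40 ± 2.82 CPM in control lymphoma and 8.48 ± 1.82 CPM in WT GC B cells, with overlapping libraries (log2 fold change 0.13, SE 0.37, adjusted p = 0.745). Its sign turned without WT replicate 1 (-0.018) or control replicate 5 (-0.086). The log2 fold change of Rag1 was 0.73 (SE 0.47, adjusted p = 0.156). It passed with upper-quartile scaling (1.13, adjusted p = 0.0353) and without WT replicate 4 (1.19, adjusted p = 0.0383). With no filter on low counts, Dntt was also called higher (2.34, SE 0.92, adjusted p = 0.0246).

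The genes whose pattern over the 14 libraries was most like that of a member were found by the root mean square difference of centred log2 CPM among 12501 genes. Vpreb3 was nearest to Chchd10, which encodes a mitochondrial protein, at a distance of 0.24, and then to Otub2, a deubiquitinase gene, at 0.28, against a median of 1.33 over all candidates. Chchd10 is also the neighbour of Vpreb3 (chromosome 10, 75935573 to 75937725), with no shared exon base. It ends 5331 bases before the Vpreb3 span used for counting, on the same strand. It was at 75.7 ± 5.77 (KO), 65.0 ± 11.5 (WT), 10.2 ± 2.69 (shTet2) and 13.8 ± 3.27 CPM (control). Cd24a was nearest to Klhdc3 (0.12) and Fam195b (0.13). Cd93 was nearest to Ighd1-1, an immunoglobulin D segment (0.40), and to Baiap2l1 (0.41), against a median of 0.99. Ighd1-1 had at most 5 counts in any lymphoma library, so its likeness rests on low counts. Il7r was nearest to Ppm1h, a phosphatase gene (0.46), and to Olfr172 (0.48), an olfactory receptor gene with 0 counts in all GC libraries. The libraries compared share a count table and a range of depth within GC and within lymphoma cells.

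Genes that work with the members were taken as 5 lists. In KO against WT, the list of other B-cell precursor markers had 7 of 12 genes tested, with 1 higher and 1 lower. Over all genes tested 6.49% passed, 1.92% higher and 4.57% lower, and counts of 1 to 3 genes a list are too small to set apart from these shares. Arpp21, which encodes a cyclic AMP-regulated phosphoprotein found in early lymphoid cells, rose in KO. It had 14, 29, 27 and 33 counts in KO libraries, against 4, 0 and 0 counts in WT libraries, with a log2 fold change of 4.14 (SE 0.74, edgeR adjusted p = 0.00270). All WT counts were in replicate 1. Arpp21 passed the filter on low counts only through the KO libraries, so the filter favoured a call in this direction. Spn, which encodes CD43, fell to 48.0 ± 5.08 CPM in KO, against 61.2 ± 12.6 CPM in WT (-0.43, SE 0.12, adjusted p = 0.0427).

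For the RAG recombinase, the end-joining partners were measured in all 14 cases, and 2 were lower in KO and 0 higher, against 4.57% and 1.92% of all genes. Polm, a DNA polymerase gene related to Dntt, was at 55.4 ± 3.93 CPM in KO and 73.6 ± 5.03 CPM in WT (log2 fold change -0.50, SE 0.09, edgeR adjusted p = 0.00270). H2afx, the histone variant marked at DNA breaks, was at 281 ± 22.1 CPM in KO and 342 ± 10.9 CPM in WT (-0.37, SE 0.08, adjusted p = 0.0132). The median of the list was 0.03, against 0.01 over all genes tested.

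IL-7 receptor signalling had 11 of 13 genes tested, with 2 higher and 1 lower (6.49% of all genes passed) and a median of -0.04. The signal transducers Stat5a and Stat5b rose in KO. Stat5b was at 98.2 ± 7.36 CPM in KO and 71.9 ± 4.004 CPM in WT (log2 fold change 0.36, SE 0.09, edgeR adjusted p = 0.0171), and Stat5a at 39.8 ± 1.15 CPM in KO and 30.3 ± 1.45 CPM in WT (0.31, SE 0.08, adjusted p = 0.0343). Crlf2, the receptor chain that pairs with the IL-7 receptor to bind TSLP, fell to 16.2 ± 2.62 CPM in KO, against 23.1 ± 1.56 CPM in WT (-0.60, SE 0.12, adjusted p = 0.00709).

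Among 10 genes of pre-B-cell receptor signalling none passed in KO against WT (1 at an unadjusted p under 0.05, Pik3ap1 with -0.35 and an edgeR adjusted p of 0.195), with a median of -0.02. Among 20 early B-lineage transcription factor genes 1 was higher and 0 lower, which is near the 6.49% of all genes that passed, with a median of 0.01. This was Gfi1, a zinc-finger repressor gene, at 8.38 ± 1.23 CPM in KO and 4.75 ± 0.647 CPM in WT (log2 fold change 0.73, SE 0.16, adjusted p = 0.0105).

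**Figure D4:**
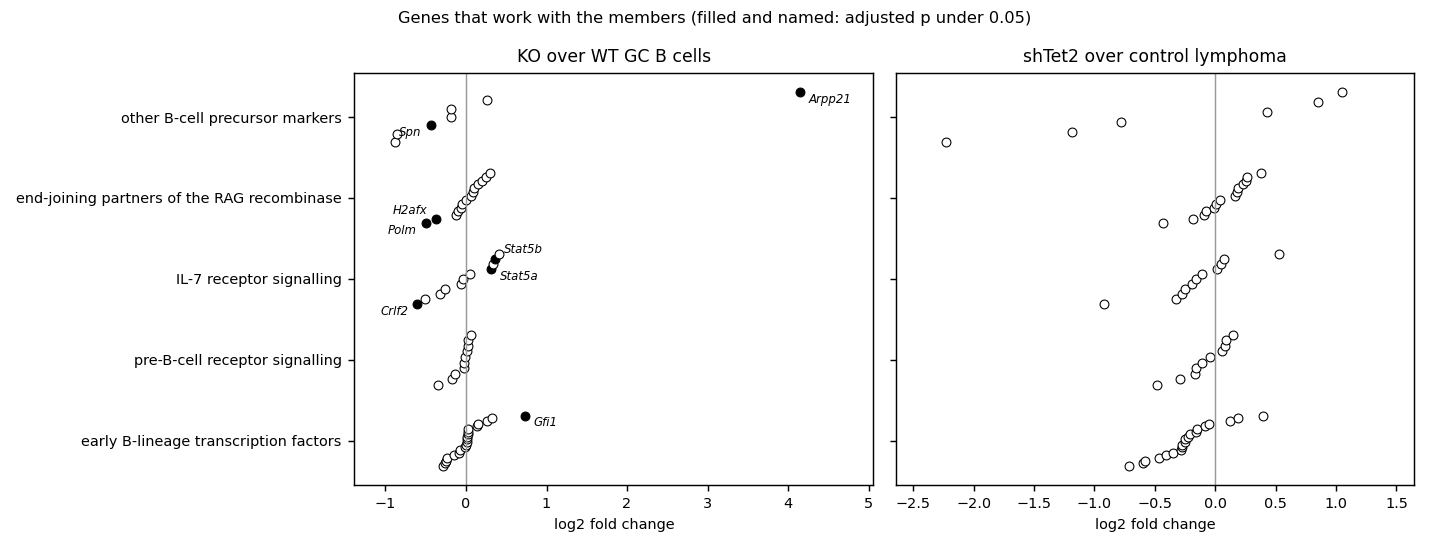
Log2 fold changes of every tested gene of the 5 lists, in KO over WT GC B cells and in shTet2 over control lymphoma cells, ordered by size within a list (height within a list has no other meaning). Filled and named points had an edgeR adjusted p under 0.05. There are 8 filled points for KO over WT and none for shTet2 over control.

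In shTet2 against control lymphoma cells, 0 genes of the 5 lists passed. The numbers tested were 6, 14, 11, 10 and 20 in the order above, with 3, 0, 2, 2 and 7 genes at an unadjusted p under 0.05. The median log2 fold changes were -0.18, 0.10, -0.16, -0.08 and -0.25, against -0.00 over all genes. The smallest p in each list belonged to Bst1 (-2.23, edgeR adjusted p = 0.103), Prkdc (0.19, adjusted p = 0.276), Pim1 (0.53, adjusted p = 0.1096), Cd79a (-0.48, adjusted p = 0.0738) and Bach2 (-0.59, adjusted p = 0.0640). Bst1, a marker of early B-lineage cells, had 2 and 3 counts in shTet2 libraries, against 2, 5, 10, 10 and 11 in control libraries.

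Control lymphoma differed from WT GC B cells in most genes of these lists, as it did over all genes. Flt3, a receptor of early progenitors that GC B cells also expressed, was at 3.29 ± 0.965 CPM in control lymphoma and 39.4 ± 1.69 CPM in WT GC B cells (log2 fold change -3.47, edgeR adjusted p = 1.30e-13). Lef1, a transcription factor gene of pro-B cells, was at 5.07 ± 1.26 CPM in control lymphoma and 1.15 ± 0.276 CPM in WT (2.26, adjusted p = 1.02e-05). IL-7 receptor signalling genes moved in both directions. Of 12 tested, 5 were higher and 3 lower (Crlf2, Jak3 and Pim1), against 40.2% and 40.4% of all genes. Among the higher, Bcl2, a survival gene, was at 133 ± 15.6 CPM in control lymphoma and 14.1 ± 3.45 CPM in WT (3.35, adjusted p = 1.56e-09). Il2rg, the partner chain of the IL-7 receptor, was at 110.2 ± 7.07 CPM in control lymphoma and 76.8 ± 5.05 CPM in WT (0.63, adjusted p = 3.95e-06). Foxp1, which takes part in the control of Rag genes in mouse pro-B cells, was at 679.7 ± 53.7 CPM in control lymphoma and 119.7 ± 9.30 CPM in WT (2.62, adjusted p = 1.67e-13). Pou2af1, a coactivator that binds with octamer factors, was at 399 ± 18.1 CPM in control lymphoma and 1359 ± 134 CPM in WT (-1.65, adjusted p = 3.40e-13), and Tcf3, which encodes the E2A proteins, at 93.2 ± 8.29 CPM in control lymphoma and 336 ± 22.6 CPM in WT (-1.73, adjusted p = 2.21e-13).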

How the data were processed

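The libraries were TruSeq stranded mRNA libraries, per the labels' protocols. Alignment used STAR 2.3.0e on GRCm38.p3, per the submitters' processing notes. Raw read counts were deposited for each gene, from featureCounts 1.5.1 over GENCODE vM3 exons, summed by gene name, with no strand or paired-end option, per the file headers. Libraries were mapped to groups by title. All 14 were used, and no pair was a copy. Counts were fitted with edgeR 4.0.16 in R 4.3.3 (TMM scaling, filterByExpr, robust quasi-likelihood, Benjamini-Hochberg over all genes tested), after a check on simulated data. The comparison of control lymphoma with WT GC B cells and the difference of effects used 1 model of all 4 groups. Log2 CPM used a prior count of 2. Alternatives were other scalings and filters, DESeq2 1.42.0, removal of structural RNA rows, a replicate block, 1 model of all groups and each library left out. The members and gene lists were chosen with earlier results of these data known. Named genes were the members, up to 3 called genes per list and comparison (up to 2 per direction for control lymphoma against WT, of which some are left out), or the smallest p, and the 2 nearest genes by pattern. Sequences were from RefSeq tables of GRCm38.p6, and coordinates of genes from the count tables. Low counts limit precision, and genes under the filter have values but no test.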

Additional observations from a re-analysis of the deposited data

Results flagged for a closer look

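Of 17 sets of libraries examined (each gene with a count in the 4 KO or the 5 control lymphoma libraries), 5 held a library whose gap to the nearest other was large for the range of its group. Chance flags about 1 in 20 sets of continuous values, a rate that does not apply to the 2 sets with a single count, where 1 count against 0 is always marked out. Il7r was at 0.276 CPM in KO replicate 5 (12 counts), against 0.0479 to 0.0693 CPM (2 or 3 counts) in the other KO libraries. Sox4 was at 0.0693 CPM in KO replicate 2 (3 counts), below the 0.240 to 0.273 CPM of the other KO libraries. Cd24a was at 225 CPM in control lymphoma replicate 5, above the 172 to 182 CPM of the other controls. The remaining values rest on 1 count each: Vpreb1 at 0.185 CPM in control lymphoma replicate 1 and Igll1 at 0.344 CPM in control lymphoma replicate 2, with 0 counts in the other controls.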

How the results depend on the processing

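Of 362 alternative values of the 23 tested gene results, 332 kept their direction and side of the threshold, 6 lost and 12 gained a call, and 12 turned sign. None of those that turned sign passed the test, and the cause was not tested. In KO against WT, 2 members passed with median-of-ratios scaling, in DESeq2 and with no filter, and 0 to 1 with a library left out. No filter gave 1365 called genes. With a library left out, Rag1 ranged from -0.68 to 0.091. In shTet2 against control, DESeq2 called 593 genes, no filter 782 and 1 model of all groups 840. Leaving out a library gave 100 to 2481 genes (2481 without shTet2 replicate 1) and 0 to 1 members. With a library left out, Vpreb3 ranged from -1.07 to 0.092 and Cd24a from -0.20 to 0.024, both positive without shTet2 replicate 2. In control lymphoma against WT GC B cells, counts stayed within 1.5 times, and Cd93 ranged from -0.086 to 0.27 with a library left out. For the difference of effects DESeq2 called 1198 genes and 1 member, and leaving out a library gave 283 to 2001 genes and 0 to 3 members. Sox4 then ranged from -1.53 to 0.47, positive without KO replicate 3, WT replicate 1, shTet2 replicate 2 or control replicate 5.

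Deviations of same-numbered libraries from their group means had correlations of 0.03 and -0.03 in GC and -0.10 and -0.00 in lymphoma cells. The 2 shTet2 libraries deviate from their mean as mirror images, so the lymphoma values cannot show a pairing. In GC cells too few libraries share a number to exclude one. With the replicate block, 570 genes were called in KO against WT, Cd93 among them, and 4 in shTet2 against control, where Vpreb3 was 0.042, Il7r 0.75 and Sox4 0.21, with no member called.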
